A study of Mus musculus with 8 samples.

Results

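The organic ion and drug transporters are the membrane proteins that move charged metabolites, hormones, toxins and medicines across cells. Their genes were followed in kidneys of mice labelled Arhgef11Sglt2 DOCA (3 libraries) and Sglt2Cre DOCA (5 libraries). Members were all listed genes whose mouse symbol begins with Slc22a, Slco, Slc47a or Abcc followed by a digit, plus Abcb1a and Abcb1b, without Slc22a5 and Slc22a12. The rule took 45 of 15948 listed genes: 22 Slc22a, 10 Slco, 2 Slc47a, 9 Abcc and 2 Abcb1 genes. It takes 53 symbols in the gene table, and the other 8 were not analysed here.

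The study's title names systemic and proximal tubule knockouts of Arhgef11, an exchange factor that activates the GTPase RhoA, in hypertension and kidney injury. Sglt2 takes up filtered glucose at the start of the proximal tubule, and a Cre recombinase driven by its promoter acts in those cells and leaves other kidney cells with the gene. Both group names carry Sglt2 and DOCA, which in this field stands for the mineralocorticoid deoxycorticosterone acetate. No kidney without DOCA enters the comparison. Age, sex and strain are not given in the labels, and these do not say that the libraries came from separate animals. The p-values then measure the spread between libraries, part of which may be technical. The Y-linked gene Ddx3y was present in every library, at 2108 to 3149 normalized counts in the Arhgef11Sglt2 libraries and at 2178 to 2997 in the Sglt2Cre libraries.

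In the proximal tubule, organic anions enter from the blood through Slc22a6 and Slc22a8 and organic cations through Slc22a2, and they leave into the urine through apical carriers such as Slc47a1 and pumps of the Abcc and Abcb1 kind. The Slco genes encode organic anion transporting polypeptides with wide substrate ranges, which include bile salts, steroid conjugates, thyroid hormone and prostaglandins. In mouse kidney, levels of several of these transporters are known to differ between males and females.

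Expression is given as normalized counts, obtained by inverting the deposited log2 values, and folds are ratios of their group means. Tests, log2 differences and their standard errors (SE) are on the deposited log2 scale, which compresses differences of low genes. The test was limma over all genes with Benjamini-Hochberg adjustment, at a threshold of 0.05. Normalized totals were 43040000 to 46680000 per library. The spacing between low values gave estimated depths of 51400000 to 57900000 reads in the Arhgef11Sglt2 libraries and 33000000 to 59500000 reads in the Sglt2Cre libraries. Arhgef11 itself had 2935, 3919 and 3905 normalized counts in the Arhgef11Sglt2 libraries, against 3479 to 3928 in the Sglt2Cre libraries (log2 difference -0.04, SE 0.09, limma adjusted p = 0.834). This value over the whole gene and the whole kidney leaves the labels unchecked, and every direction below is between libraries as labelled.

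Slc22a28 and Slc22a30 are near copies of each other, and their sequences bear on every value given for them. In a gene table of another build (GRCm38.p6) they lie in 1 row of 8 Slc22a genes on chromosome 19, in the order Slc22a19, Slc22a26, Slc22a27, Slc22a28, Slc22a29, Slc22a30, Slc22a8 and Slc22a6. Their annotated transcripts (GENCODE M21, GRCm38) were 98.9% identical over 1485 aligned bases. Of 1905 windows of 100 bases, the read length, in the Slc22a28 transcript, 37.0% occurred unchanged in another gene, and of 2499 in the Slc22a30 transcript, 24.3% did. Over coding bases within 1 exon, 312 of 592 windows of the pair were identical. The window with the most differences lies in exon 4 of both transcripts and holds 3. It is shown because a read or its mate must cover such bases to be told apart, with the differing bases in capitals. The reads were paired, so shares of single windows do not give the share of read pairs that fit both genes. The Slc22a28 window is chr19:8116806-8116905 and the Slc22a30 window chr19:8386461-8386560 (GRCm38, minus strand for both).
Slc22a28 coding window: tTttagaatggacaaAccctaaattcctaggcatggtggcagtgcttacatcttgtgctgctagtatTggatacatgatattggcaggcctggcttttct
Slc22a30 coding window: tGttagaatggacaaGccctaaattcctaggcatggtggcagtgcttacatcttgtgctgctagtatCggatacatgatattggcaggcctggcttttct
The other pairs shared less sequence. The next in identity was Slc22a27 with Slc22a29 (96.8% over 2088 bases), and Abcb1a with Abcb1b stood at 87.2% over 4032 bases. Of the Slc22a13 windows, 21.8% occurred in another gene, the pseudogene Slc22a13b-ps first among them. Of the Slc22a21 windows, 12.1% occurred in a gene outside the list. Values of these genes are uncertain for that reason, to an extent that the shares of single windows do not fix.

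The 250 bases before the start of Slc22a28 and Slc22a30 are also alike, and are shown as a further likeness of the pair. Whether these bases bear on the values of the pair was not tested. The stretches were aligned over 244 bases with 6 differences (97.5% identical). Capitals mark bases that differ or lie outside the alignment. The sequences are from RefSeq on GRCm38.p6, minus strand, at chr19:8131983-8132232 for Slc22a28 and chr19:8405106-8405355 for Slc22a30.
Slc22a28 promoter: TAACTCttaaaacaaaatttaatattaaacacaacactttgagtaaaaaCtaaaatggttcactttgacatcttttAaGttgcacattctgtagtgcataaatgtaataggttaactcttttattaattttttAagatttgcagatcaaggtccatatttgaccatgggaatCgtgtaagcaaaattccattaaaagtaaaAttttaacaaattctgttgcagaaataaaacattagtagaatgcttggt
Slc22a30 promoter: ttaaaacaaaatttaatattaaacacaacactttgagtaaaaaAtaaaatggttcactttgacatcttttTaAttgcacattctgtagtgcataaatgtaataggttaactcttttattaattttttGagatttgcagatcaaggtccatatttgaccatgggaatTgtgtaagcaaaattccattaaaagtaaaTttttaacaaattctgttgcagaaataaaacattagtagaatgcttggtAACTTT
Neither holds the HNF4 motif CAAAGTCCA or the motif AGAACA on either strand. AGAACA is a motif of the glucocorticoid receptor that is not particular to it. The absence of both says only that these letters are not in these windows.

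Of the 45 transporter genes, 7 passed the threshold in limma, 3 higher and 4 lower in the Arhgef11Sglt2 libraries. That is 15.6% of the members, beside 2.22% of all genes tested (0.627% higher and 1.59% lower). The 4 lower genes were Slc22a22, Slc22a28, Slc22a30 and Slc22a17, and the 3 higher ones Abcc4, Abcc3 and Slco2a1. Since reads can fit both Slc22a28 and Slc22a30, these genes cannot be taken as separate observations. The median log2 difference of the members was -0.06, beside -0.0070 over all genes, and 28 of 45 (62.2%) had a negative difference, beside 52.1% of all genes. In 9 members (20.0%) the groups did not overlap, 3 higher and 6 lower, beside 14.3% of all genes (6.2% higher and 8.14% lower). Group means differed by more than 1.5-fold in 12 members (26.7%), low genes included, beside 14.1% of all genes. The members had means between 2.96 and 19844 normalized counts, and 9 of them lay under 50, where the scale allows only small log2 differences. These shares describe the list and are given with no test. The number of higher genes was 0 without Arhgef11Sglt2 replicate 2 or 3 or Sglt2Cre replicate 3, 4 or 5, 1 without Sglt2Cre replicate 1 or 2, and 6 without Arhgef11Sglt2 replicate 1. The number of lower genes was 2 without Arhgef11Sglt2 replicate 3 or Sglt2Cre replicate 4.

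**Figure D1:**
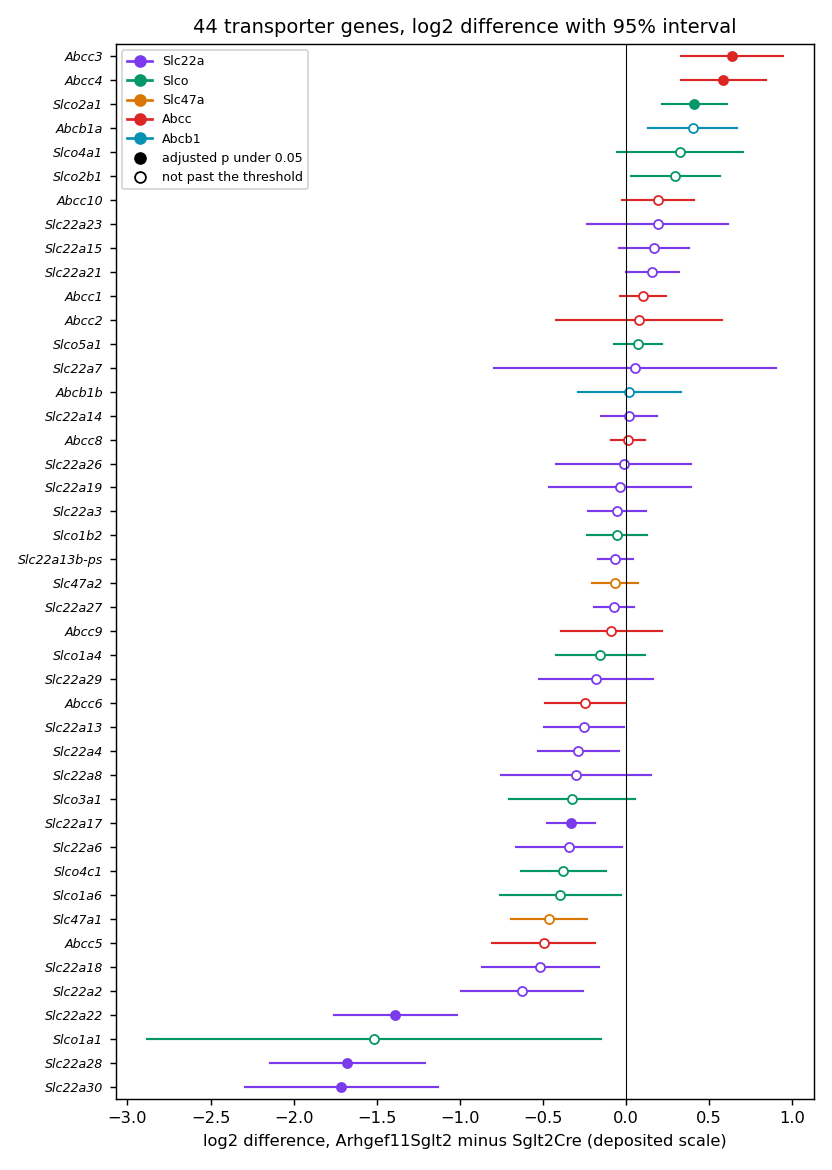
Log2 difference (Arhgef11Sglt2 minus Sglt2Cre, deposited scale, x axis) of 44 transporter genes with 95% intervals from limma, coloured by family. Filled points mark the 7 genes past an adjusted p of 0.05: Slc22a30, Slc22a28, Slc22a22 and Slc22a17 on the left, and Slco2a1, Abcc4 and Abcc3 on the right.

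The strongest differences were in the Slc22a family. Slc22a28 had 1718, 1124 and 1305 normalized counts in the Arhgef11Sglt2 libraries, against 3181, 6092, 5715, 6168 and 7062 in the Sglt2Cre libraries. The groups did not overlap, and Sglt2Cre replicate 1 was the lowest of its group. The gene was 4.08-fold lower (1382 ± 304 in the Arhgef11Sglt2 libraries, SD, n = 3, and 5644 ± 1462 in the Sglt2Cre libraries, SD, n = 5), with a log2 difference of -1.68 (SE 0.21, limma adjusted p = 0.0131). Slc22a30 had 1692, 896 and 1238 normalized counts in the Arhgef11Sglt2 libraries, against 2801, 4984, 5617, 6158 and 7809 in the Sglt2Cre libraries. It was 4.29-fold lower, with a log2 difference of -1.71 (SE 0.26, limma adjusted p = 0.0176), and the order of the libraries was nearly that of Slc22a28. Its adjusted p was 0.0694 without Arhgef11Sglt2 replicate 3 and 0.0573 without Sglt2Cre replicate 4. Reads that fit both genes cannot be assigned with certainty, but the sum of the pair does not depend on how they were split. The sum was 2658 ± 702 normalized counts in the Arhgef11Sglt2 libraries and 11117 ± 3239 in the Sglt2Cre libraries, 4.18-fold lower, and 4.67-fold lower without Sglt2Cre replicate 1.

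The 6 other genes of the row on chromosome 19 did not pass the threshold, with log2 differences between -0.34 for Slc22a6 and -0.01 for Slc22a26. Slc22a29, which lies between Slc22a28 and Slc22a30, had 250, 498 and 224 normalized counts in the Arhgef11Sglt2 libraries, against 611, 362, 450, 353 and 275 in the Sglt2Cre libraries. The groups overlapped (log2 difference -0.18, SE 0.15, limma adjusted p = 0.535). Slc22a19, an organic anion carrier of the proximal tubule in mouse, had 1475, 1822 and 2355 normalized counts in the Arhgef11Sglt2 libraries, against 1113 to 2460 in the Sglt2Cre libraries (limma adjusted p = 0.937). Slc22a26 had 449 to 765 normalized counts in the Arhgef11Sglt2 libraries, against 346 to 1022 in the Sglt2Cre libraries. Slc22a27 was low in every library, at 14.9 to 20.1 normalized counts in the Arhgef11Sglt2 libraries, against 14.3 to 36.04 in the Sglt2Cre libraries. The difference between the pair and its neighbours was not tested.

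**Figure D2:**
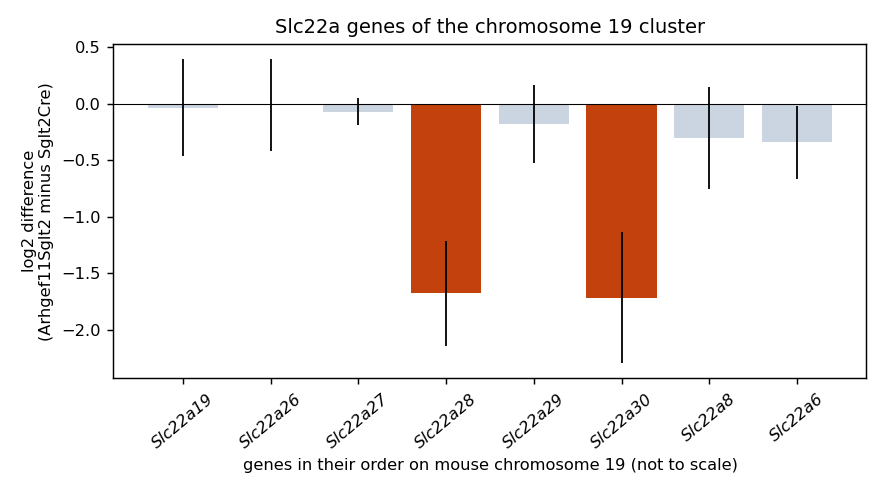
Log2 difference (Arhgef11Sglt2 minus Sglt2Cre, y axis) of the 8 Slc22a genes in their order on chromosome 19 (x axis, not to scale), with 95% intervals from limma as lines. Slc22a28 (-1.68) and Slc22a30 (-1.71), in orange, passed the threshold, and the 6 genes in grey did not.

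Slc22a22 encodes a prostaglandin transporter of the proximal tubule described in mouse. It had 1115, 1059 and 663 normalized counts in the Arhgef11Sglt2 libraries, against 2151, 3745, 3253, 3531 and 3647 in the Sglt2Cre libraries. The groups lay well apart, and Sglt2Cre replicate 1 was again the lowest of its group. The gene was 3.45-fold lower (946 ± 247 in the Arhgef11Sglt2 libraries, SD, n = 3, and 3266 ± 649.5 in the Sglt2Cre libraries, SD, n = 5), with a log2 difference of -1.39 (SE 0.17, limma adjusted p = 0.012). Slc22a22 and Slc22a28 kept their calls with any 1 library left out, with adjusted p of 0.0047 to 0.049 and of 0.00152 to 0.049. RefSeq gives Slc22a22 more than 1 start. The 250 bases before one of these starts (chr15:57265162-57265411, GRCm38.p6, minus strand) hold a pair of matches to AGAACA, read as TGTTCT on the other strand and set in capitals.
Slc22a22 promoter: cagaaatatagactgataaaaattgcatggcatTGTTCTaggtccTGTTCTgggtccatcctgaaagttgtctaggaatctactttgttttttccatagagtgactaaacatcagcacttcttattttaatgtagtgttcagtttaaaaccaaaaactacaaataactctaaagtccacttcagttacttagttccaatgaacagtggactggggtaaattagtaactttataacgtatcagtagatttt
The 250 bases before its other start in the table (chr15:57477626-57477875) hold 0 matches. A match is not a binding site. AGAACA was found on either strand in 16.1% of the 32851 promoters of the table, at the same length of 250 bases. Among the 34 members with an entry there, 7 (20.6%) had it in at least 1 promoter. This share counts genes, some with several promoters, so it runs higher than a share of promoters would. CAAAGTCCA was in 0 of the 34, beside 0.384% of all promoters.

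Slc22a17, described as a receptor for lipocalin-2, showed a small difference with little spread. It had 824, 976 and 928 normalized counts in the Arhgef11Sglt2 libraries, against 1352, 1224, 1186, 1292 and 1245 in the Sglt2Cre libraries. It was 1.39-fold lower (log2 difference -0.33, SE 0.06, limma adjusted p = 0.0394). The call was lost without Arhgef11Sglt2 replicate 3 (adjusted p = 0.1) and without any 1 of the Sglt2Cre libraries (adjusted p = 0.0519 to 0.103). Lcn2, the gene of lipocalin-2 and a marker of injured tubule, had 7302, 4352 and 6932 normalized counts in the Arhgef11Sglt2 libraries, against 1249 to 2553 in the Sglt2Cre libraries (3.14-fold higher, limma adjusted p = 0.0154). Whether the values of Lcn2 have a part in those of Slc22a17 was not tested.

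The genes that were higher encode a pair of export pumps and a prostaglandin carrier. Abcc4 (MRP4) is an apical pump of the proximal tubule that exports cyclic nucleotides, urate, prostaglandins and drug conjugates. It had 3495, 4740 and 4815 normalized counts in the Arhgef11Sglt2 libraries, against 3198, 2569, 2295, 2725 and 2766 in the Sglt2Cre libraries. The groups did not overlap, but Arhgef11Sglt2 replicate 1 lay close to Sglt2Cre replicate 1. Abcc4 was 1.605-fold higher (4350 ± 742 in the Arhgef11Sglt2 libraries, SD, n = 3, and 2711 ± 329 in the Sglt2Cre libraries, SD, n = 5), with a log2 difference of 0.59 (SE 0.12, limma adjusted p = 0.0394). The call was lost without Arhgef11Sglt2 replicate 2 (adjusted p = 0.0759), without Arhgef11Sglt2 replicate 3 (adjusted p = 0.158) and without any 1 of Sglt2Cre replicates 2 to 5 (adjusted p = 0.0615 to 0.0952).

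Abcc3 (MRP3), a basolateral pump of conjugated bile salts and glucuronides, was the lowest of the 7 genes in level. It had 779, 1180 and 755 normalized counts in the Arhgef11Sglt2 libraries, against 525, 596, 379, 303 and 364 in the Sglt2Cre libraries. All Arhgef11Sglt2 libraries were above all Sglt2Cre libraries, and replicate 2 stood out as the highest. Abcc3 was 2.09-fold higher, with a log2 difference of 0.64 (SE 0.14, limma adjusted p = 0.0484). As log2(normalized count + 1) the difference was 1.07, which shows the compression of the deposited scale at this level. Its call was lost without Arhgef11Sglt2 replicate 2 or replicate 3 (adjusted p = 0.0921 and 0.107) and without any 1 of Sglt2Cre replicates 1, 3, 4 and 5 (adjusted p = 0.067 to 0.107).

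Slco2a1, the prostaglandin transporter that takes up prostaglandins for breakdown, had 2347, 2526 and 2765 normalized counts in the Arhgef11Sglt2 libraries, against 1988, 1557, 1953, 1897 and 1585 in the Sglt2Cre libraries. It was 1.42-fold higher (2546 ± 209.5 in the Arhgef11Sglt2 libraries, SD, n = 3, and 1796 ± 208 in the Sglt2Cre libraries, SD, n = 5), with a log2 difference of 0.41 (SE 0.09, limma adjusted p = 0.0474). The call was lost without Arhgef11Sglt2 replicate 2 or replicate 3 (adjusted p = 0.0789 and 0.176) and without any 1 of the Sglt2Cre libraries (adjusted p = 0.0624 to 0.103). With a block for the library number range its adjusted p was 0.0547. Slco2a1 is known from vascular endothelium. Of 6 endothelial markers, 0 passed the threshold in limma, 0 had an unadjusted p under 0.05, and 3 had a negative and 3 a positive difference. Their summed level was 15972 to 20713 normalized counts in the Arhgef11Sglt2 libraries and 12209 to 22846 in the Sglt2Cre libraries, with no marker at 0. Their part in the difference of Slco2a1 was not tested.

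**Figure D3:**
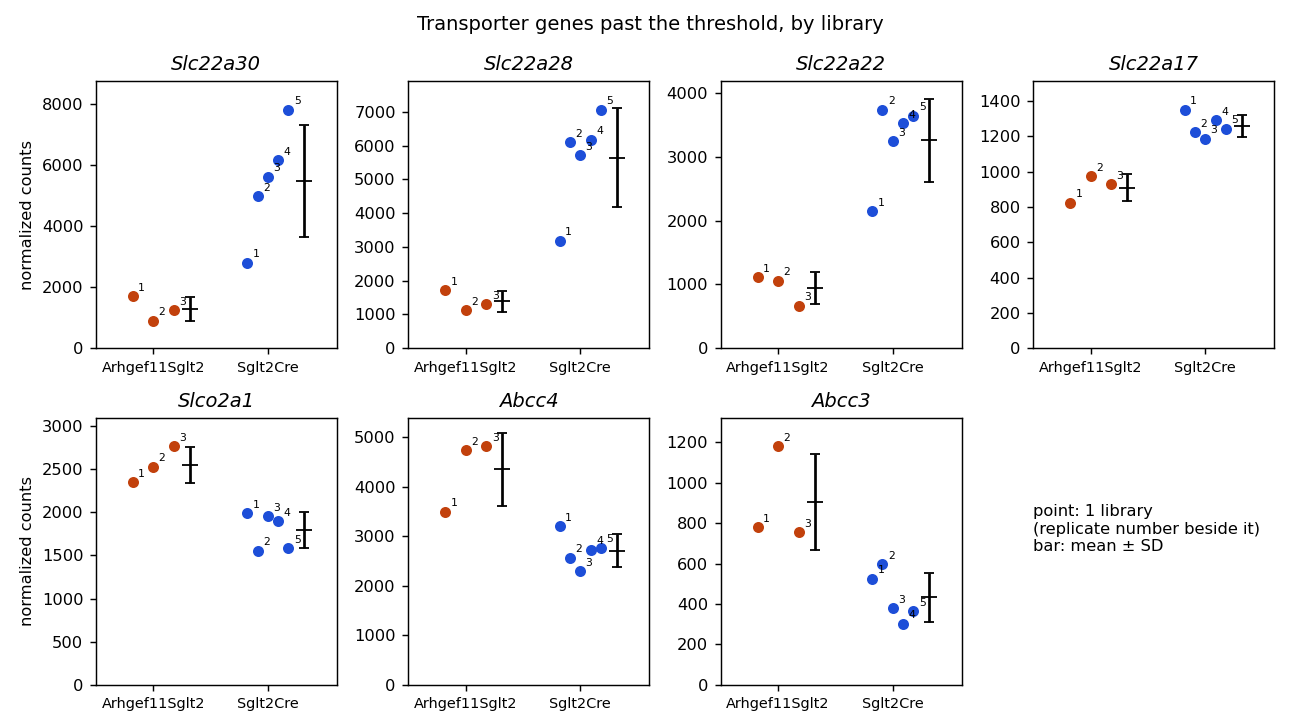
Normalized counts (y axis, from 0) of the 7 transporter genes past the threshold in each Arhgef11Sglt2 library (orange, left, n = 3) and each Sglt2Cre library (blue, right, n = 5), with replicate numbers at the points and mean ± SD in black. The groups do not overlap in any panel, and Sglt2Cre replicate 1 is the lowest of its group for Slc22a30, Slc22a28 and Slc22a22.

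The library numbers in the labels fell into a lower range (Arhgef11Sglt2 replicates 1 and 2, Sglt2Cre replicates 1 to 3) and an upper range (Arhgef11Sglt2 replicate 3, Sglt2Cre replicates 4 and 5). The labels do not say what these ranges are. All 7 genes kept their direction in each range, which was fixed in advance because their groups did not overlap. In the lower and the upper range, Slc22a28 was 3.52-fold and 5.07-fold lower, Slc22a30 3.45-fold and 5.64-fold lower, Slc22a22 2.81-fold and 5.41-fold lower, and Slc22a17 1.39-fold and 1.37-fold lower. Abcc4 was 1.53-fold and 1.75-fold higher, Abcc3 1.96-fold and 2.26-fold higher, and Slco2a1 1.33-fold and 1.59-fold higher. The upper range holds only 1 Arhgef11Sglt2 library.

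The organic anion carriers Slc22a6, Slc22a8 and Slc22a7 did not pass the threshold. Slc22a6 (OAT1), the main organic anion carrier of the proximal tubule, had 19343, 16170 and 15040 normalized counts in the Arhgef11Sglt2 libraries, against 17392, 18470, 25999, 24103 and 22236 in the Sglt2Cre libraries. Arhgef11Sglt2 replicate 1 lay within the range of the Sglt2Cre libraries, while replicates 2 and 3 lay below it (log2 difference -0.34, SE 0.14, limma adjusted p = 0.207). Slc22a8 (OAT3) had 7046, 13410 and 11503 normalized counts in the Arhgef11Sglt2 libraries, against 15660, 9719, 12116, 12863 and 14547 in the Sglt2Cre libraries (limma adjusted p = 0.424). Only Arhgef11Sglt2 replicate 1 was below every Sglt2Cre library.

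Slc22a7 (OAT2) varied more within groups than between them. It had 564, 2123 and 1822 normalized counts in the Arhgef11Sglt2 libraries, against 1111, 451, 1641, 1444 and 2441 in the Sglt2Cre libraries (log2 difference 0.05, 95% interval -0.79 to 0.90, limma adjusted p = 0.953). Its interval is wide, so a difference of the size seen for Abcc3 was not detectable here.

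Slc22a2 (OCT2), an organic cation carrier whose gene lies on chromosome 17, had mostly lower values. Slc22a2 had 6516, 4209 and 3742 normalized counts in the Arhgef11Sglt2 libraries, against 5955, 7312, 7703, 8319 and 8679 in the Sglt2Cre libraries (log2 difference -0.63, SE 0.17, limma adjusted p = 0.079). Arhgef11Sglt2 replicate 1 was above Sglt2Cre replicate 1, so the groups overlapped, and without Arhgef11Sglt2 replicate 1 Slc22a2 passed the threshold. Slc22a3, a cation carrier gene that lies near it, was low in both groups, at 15.2 to 48.5 normalized counts in the Arhgef11Sglt2 libraries and 13.4 to 46.3 in the Sglt2Cre libraries.

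Slc47a1 (MATE1), which passes organic cations on into the urine, came closest to the threshold of the genes that did not pass. It had 14096, 15855 and 13793 normalized counts in the Arhgef11Sglt2 libraries, against 17058, 22407, 19529, 20975 and 21977 in the Sglt2Cre libraries. The groups did not overlap, and the log2 difference was -0.46 (SE 0.10, limma adjusted p = 0.0504). Under the filter on low values, on either log2 scale with a pseudocount and with no variance trend, its adjusted p was below 0.05 (0.0424 to 0.0477), as it was without Sglt2Cre replicate 1 (0.0346). It was 0.0588 with a block for the library number range, 0.0609 at equal totals, 0.0621 with sample weights and 0.0508 to 0.184 without any other 1 library. Slc47a2 was at 3.13 to 10.5 normalized counts in the Arhgef11Sglt2 libraries and at 4.72 to 24.7 in the Sglt2Cre libraries.

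Of the remaining Slc22a genes, Slc22a4 (OCTN1, the ergothioneine carrier) had 1477, 961 and 1430 normalized counts in the Arhgef11Sglt2 libraries, against 1540 to 1933 in the Sglt2Cre libraries. The groups did not overlap, but the difference did not pass (log2 difference -0.29, SE 0.11, limma adjusted p = 0.176). Slc22a18, an imprinted gene in mouse, had 6197, 9279 and 6561 normalized counts in the Arhgef11Sglt2 libraries, against 11816, 7780, 11118, 11516 and 11207 in the Sglt2Cre libraries (limma adjusted p = 0.11). Sglt2Cre replicate 2 stood apart from the 4 others of its group, and without it Slc22a18 passed the threshold. Slc22a13 (log2 difference -0.25, limma adjusted p = 0.215), Slc22a23 (0.19, limma adjusted p = 0.604), Slc22a15 (0.17, limma adjusted p = 0.342) and Slc22a21 (0.16, limma adjusted p = 0.246) did not pass. Slc22a23 was uneven within the Arhgef11Sglt2 group, with 3592, 5823 and 8037 normalized counts, against 4331 to 5268 in the Sglt2Cre libraries. Slc22a14 and the pseudogene Slc22a13b-ps stayed under 50 normalized counts in every library.

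In the Slco family, Slco1a1 had the widest range of the members present in every library. This carrier of bile salts and steroid conjugates, known as a male-biased gene of mouse kidney, had 169, 42.4 and 20.8 normalized counts in the Arhgef11Sglt2 libraries, against 56.2, 460, 478, 1411 and 4090 in the Sglt2Cre libraries. The highest Sglt2Cre library was 72.7 times the lowest, and Sglt2Cre replicate 1 lay among the Arhgef11Sglt2 libraries. The log2 difference was -1.52 (SE 0.61, limma adjusted p = 0.194), so despite a 16.8-fold ratio of means it did not pass. The ratio was 7.78-fold lower without Sglt2Cre replicate 5 and 41.1-fold lower without Arhgef11Sglt2 replicate 1. Sglt2Cre replicates 4 and 5 were also the highest for the liver-type genes Slco1a4 (89.3 and 101, beside 15.4 to 28.9 in the other Sglt2Cre libraries and 18.4 to 33.1 in the Arhgef11Sglt2 libraries) and Slco1b2 (9.75 and 8.56, beside 0 to 0.629 in the other Sglt2Cre libraries and 0 to 4.72 in the Arhgef11Sglt2 libraries). Their estimated depths, 33000000 and 33600000 reads, were the lowest of the 8 libraries.

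Slco1a6, the Slco gene highest per length in these kidneys, had 5146, 9046 and 7009 normalized counts in the Arhgef11Sglt2 libraries, against 7750, 8150, 10059, 10023 and 10536 in the Sglt2Cre libraries (log2 difference -0.39, SE 0.16, limma adjusted p = 0.203). Slco4c1, a basolateral carrier of digoxin and uraemic toxins known from human and rat kidney, had 926, 540 and 781 normalized counts in the Arhgef11Sglt2 libraries, against 889 to 1243 in the Sglt2Cre libraries (limma adjusted p = 0.11). Slco3a1 had a log2 difference of -0.33 (limma adjusted p = 0.299), Slco2b1 of 0.30 (limma adjusted p = 0.194) and Slco4a1, a thyroid hormone carrier, of 0.32 (limma adjusted p = 0.303). Slco4a1 was highest in Arhgef11Sglt2 replicate 3, with 1721 normalized counts, beside 857 and 1064 in replicates 1 and 2 and 632 to 1054 in the Sglt2Cre libraries. Slco5a1 was under 30 normalized counts in every library.

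Among the other pumps, Abcc2 (MRP2), the apical pump of organic anion conjugates, had 11173, 20902 and 22326 normalized counts in the Arhgef11Sglt2 libraries, against 15539, 13431, 15807, 15960 and 22668 in the Sglt2Cre libraries. Replicate 1 was the lowest and replicate 3 the second highest of all libraries, and the log2 difference was 0.08 (95% interval -0.42 to 0.58, limma adjusted p = 0.879). Abcc5, an exporter of cyclic nucleotides, had 2604, 3314 and 1932 normalized counts in the Arhgef11Sglt2 libraries, against 3119 to 4292 in the Sglt2Cre libraries (log2 difference -0.50, SE 0.14, limma adjusted p = 0.0922). It passed without Arhgef11Sglt2 replicate 2, as did Abcc6, which had 331, 653 and 400 normalized counts in the Arhgef11Sglt2 libraries, against 560 to 643 in the Sglt2Cre libraries (limma adjusted p = 0.224). Abcc1 (MRP1) had a log2 difference of 0.10 (limma adjusted p = 0.381) and Abcc10 of 0.19 (limma adjusted p = 0.293).

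Abcc8 and Abcc9 belong to this family by sequence but encode sulphonylurea receptors, the regulatory subunits of potassium channels. Abcc9 had a log2 difference of -0.09 (limma adjusted p = 0.754), and Abcc8 had 8.38 to 19.2 normalized counts over all libraries. P-glycoprotein is encoded in mouse by Abcb1a and Abcb1b. Abcb1a had 306, 434 and 659 normalized counts in the Arhgef11Sglt2 libraries, against 313, 201, 233, 271 and 256 in the Sglt2Cre libraries (log2 difference 0.40, SE 0.12, limma adjusted p = 0.104). Only Arhgef11Sglt2 replicate 1 overlapped the Sglt2Cre libraries, and without it Abcb1a passed. Abcb1b had 962, 728 and 744 normalized counts in the Arhgef11Sglt2 libraries, against 547 to 1135 in the Sglt2Cre libraries (limma adjusted p = 0.953).

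Levels of different genes were compared per length, as mean normalized counts per kb of the longest annotated coding transcript. By this measure Slc47a1 was highest in the Sglt2Cre libraries, with 5525 per kb in the Arhgef11Sglt2 libraries and 7726 per kb in the Sglt2Cre libraries. Slc22a18 followed with 4733 per kb in the Arhgef11Sglt2 libraries and 6886 per kb in the Sglt2Cre libraries. Slc22a6 had 4231 per kb in the Arhgef11Sglt2 libraries and 5433 per kb in the Sglt2Cre libraries. Slc22a28 was at 690 per kb in the Arhgef11Sglt2 libraries and 2816 per kb in the Sglt2Cre libraries, where it ranked 8 of 44 members with a length. The higher genes lay further down, with Abcc4 at 761 per kb in the Arhgef11Sglt2 libraries and 474 per kb in the Sglt2Cre libraries, and Abcc3 at 181 per kb in the Arhgef11Sglt2 libraries and 86.6 per kb in the Sglt2Cre libraries. The members together took 0.276% to 0.316% of normalized counts in the Arhgef11Sglt2 libraries and 0.324% to 0.408% in the Sglt2Cre libraries.

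**Figure D4:**
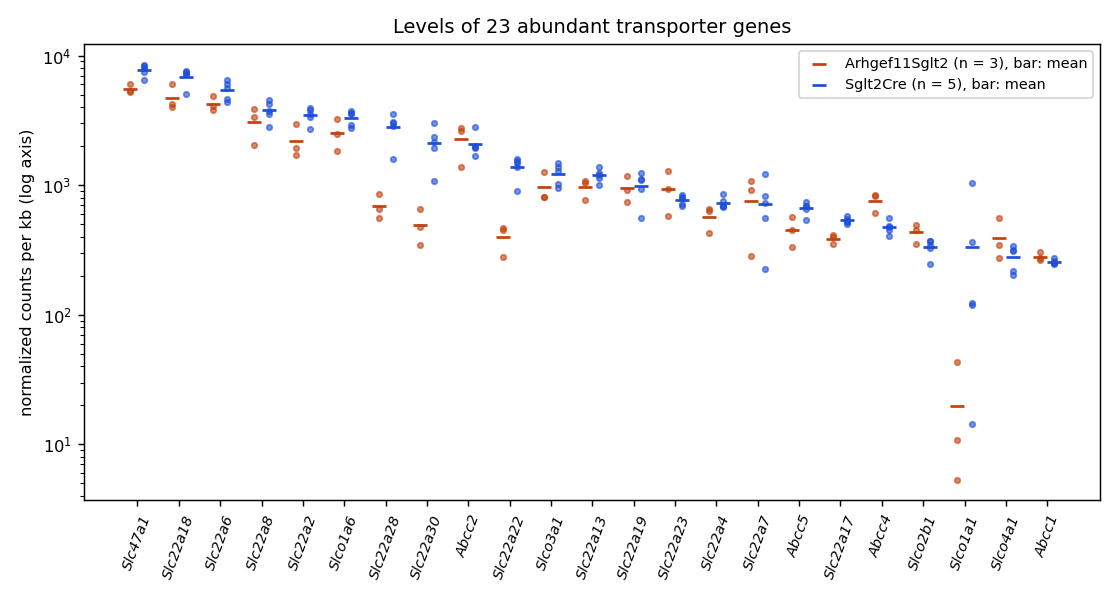
Normalized counts per kb of transcript (y axis, log axis) for 23 of the 24 transporter genes highest in the Sglt2Cre libraries, with each Arhgef11Sglt2 library in orange (left, n = 3) and each Sglt2Cre library in blue (right, n = 5), and bars at the means. Slc22a28 (690 per kb in the Arhgef11Sglt2 and 2816 per kb in the Sglt2Cre libraries), Slc22a30 and Slc22a22 lie apart between the groups, and Slco1a1 spreads most within them.

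Markers of tubule segments and other kidney cells were set beside the transporters. Of 6 late proximal tubule markers, 3 were lower (Slc7a13, Acy3 and Mep1b) and 1 higher (Slc5a10) in limma, with a median log2 difference of -1.05. Their summed level was 89596, 55229 and 48188 normalized counts in the Arhgef11Sglt2 libraries, against 79290 to 165459 in the Sglt2Cre libraries, with no marker at 0. Of 6 early proximal tubule markers, 2 were lower (Slc34a1 and Lrp2), and 5 of the 6 had a negative difference. The sums were 196527 to 324454 normalized counts in the Arhgef11Sglt2 libraries and 352833 to 385053 in the Sglt2Cre libraries. Slc34a1 and Lrp2, with Sglt2Cre means of 177205 and 113954, make up most of these sums, which therefore say little of the other markers. Of 4 injured tubule markers, 2 were higher (Lcn2 and Krt20). The 4 markers summed to 32616, 11761 and 11576 in the Arhgef11Sglt2 libraries, against 5085 to 8815 in the Sglt2Cre libraries. Havcr1 and Vcam1 did not pass, and were above every Sglt2Cre library only in Arhgef11Sglt2 replicate 1. Outside the proximal tubule, Slc12a1 of the thick ascending limb (1.62-fold lower, limma adjusted p = 0.0536) and Atp6v1b1 of the collecting duct (1.36-fold lower, limma adjusted p = 0.0558) did not overlap between the groups and did not pass. Of all genes, 8.14% were lower with no overlap. The lists of these 2 genes were mixed, with a negative difference in 2 of 3 thick ascending limb and 2 of 4 collecting duct markers, and 0 passed in either. In bulk kidney, fewer cells of a type and less RNA per cell cannot be told apart. The part of these markers in the transporter differences was not tested.

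Male-biased kidney genes showed the same low library as the Slc22a pair, which belongs to the same list. Slc22a28 and Slc22a30 were listed as male-biased too, and were left out of the counts and sums here because they are transporters. Of 5 such genes outside the transporter list, all had a negative difference and 2 passed. Those were Cyp2j13 and Slc7a13, the latter also in the late proximal tubule list. Kap, Cyp2e1 and Cyp4b1 overlapped between the groups and did not pass. The difference of Cyp2e1 was small (log2 difference -0.15, limma adjusted p = 0.714). Kap, a transcript abundant in male mouse kidney, had 120196, 30451 and 63692 normalized counts in the Arhgef11Sglt2 libraries, against 113909 in Sglt2Cre replicate 1 and 229145 to 386269 in the other Sglt2Cre libraries. The 5 genes summed to 175067, 99147 and 120007 normalized counts in the Arhgef11Sglt2 libraries. The sums were 176714 in Sglt2Cre replicate 1 and 350951 to 532482 in the other Sglt2Cre libraries. Kap made up most of the sum in every Sglt2Cre library, so these sums say little of the other genes. Sglt2Cre replicate 1 was the lowest of its group for Kap, Slc7a13, Cyp2j13, Slc22a28, Slc22a30, Slc22a22 and Slco1a1. Unlike Kap, Cyp2e1, Cyp4b1 and Slco1a1, the 3 Slc22a genes did not overlap between groups, and neither did Slc7a13 and Cyp2j13. Whether these genes have a common source of variation was not tested.

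**Figure D5:**
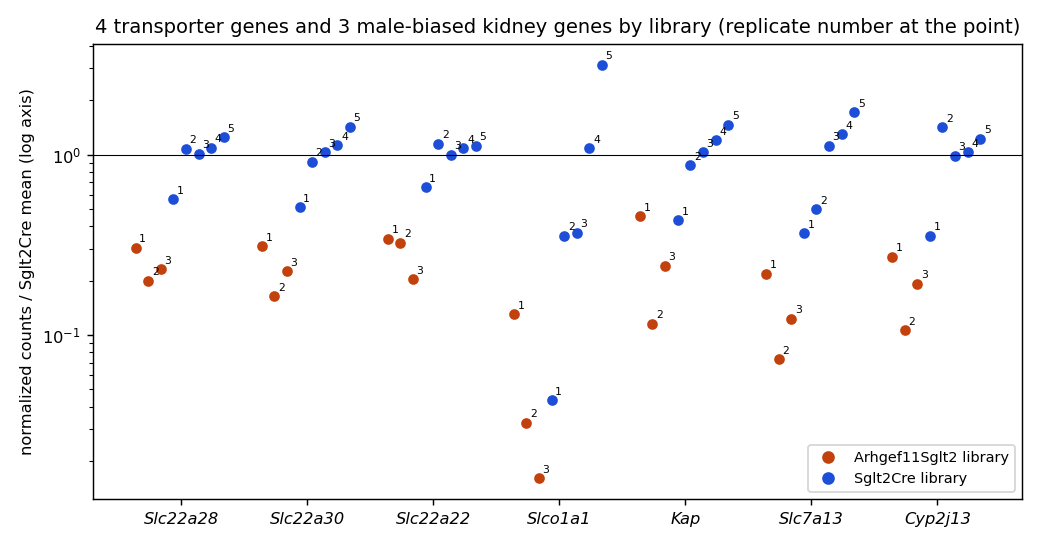
Normalized counts of 4 transporter genes and 3 male-biased kidney genes outside the transporter list (x axis), as a ratio to the Sglt2Cre mean (y axis, log axis). Each Arhgef11Sglt2 library is in orange and each Sglt2Cre library in blue, with replicate numbers at the points. The transporters Slc22a28, Slc22a30 and Slco1a1 are also known as male-biased, and Cyp2e1 and Cyp4b1 of the male-biased list are not drawn. Sglt2Cre replicate 1 is the lowest Sglt2Cre library for all 7 genes and meets the Arhgef11Sglt2 libraries for Slco1a1 and Kap.

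A list of partners was set beside the transporters: 13 carriers, pumps and scaffolds that work with them and 13 transcription factors and receptors known to act on such genes. None of the 13 partners passed in limma, 4 had an unadjusted p under 0.05, and 10 had a negative difference (median -0.13). Pdzk1, a scaffold that holds apical transporters in the brush border, had 26107, 26071 and 13625 normalized counts in the Arhgef11Sglt2 libraries, against 32108 to 42901 in the Sglt2Cre libraries, with no overlap (log2 difference -0.76, SE 0.20, limma adjusted p = 0.0788). Slc13a3, whose dicarboxylate uptake drives the organic anion exchangers, had a log2 difference of -0.18 (limma adjusted p = 0.368). Abcg2, an apical urate and drug pump, had one of -0.02 (limma adjusted p = 0.942).

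Of the 13 factors and receptors, 1 was higher and 1 lower, beside 0.627% and 1.59% of all genes. Nr1i2 (PXR), a nuclear receptor that responds to drugs and bile acids, had 435, 638 and 759 normalized counts in the Arhgef11Sglt2 libraries, against 307, 361, 296, 307 and 269 in the Sglt2Cre libraries. It was 1.98-fold higher with no overlap (log2 difference 0.51, SE 0.10, limma adjusted p = 0.0389). Its call was lost without Arhgef11Sglt2 replicate 2 or 3 (adjusted p = 0.072 and 0.122) and without any 1 of Sglt2Cre replicates 1, 3, 4 and 5 (adjusted p = 0.0716 to 0.0952). Esr1, the oestrogen receptor alpha, had 294, 219 and 174 normalized counts in the Arhgef11Sglt2 libraries, against 393, 600, 414, 427 and 654 in the Sglt2Cre libraries. It was 2.17-fold lower (log2 difference -0.54, SE 0.11, limma adjusted p = 0.0467), and the call was lost without Arhgef11Sglt2 replicate 2 or 3 (adjusted p = 0.0838 and 0.18) and without any 1 Sglt2Cre library (adjusted p = 0.0583 to 0.0952). At equal totals the adjusted p of Esr1 was 0.0502, and with a block for the library number range it was 0.0565. Nr3c1, the glucocorticoid receptor gene, did not overlap between the groups but did not pass (log2 difference -0.37, SE 0.08, limma adjusted p = 0.0552). Hnf4a, which maintains proximal tubule transporters, had a log2 difference of -0.18 (limma adjusted p = 0.39).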

How the data were processed

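Poly(A) RNA of 8 kidney samples was made into stranded libraries and sequenced with paired 100-base reads, per the labels' protocols. Salmon 1.10.0, DESeq2 and GRCm39 are named in the submitters' processing notes. No source used here names the annotation or the filter on genes. The table of 15948 genes deposited by the authors holds log2 values after variance stabilization, read as such because all columns share a minimum of 8.1275, taken as a count of 0. Inverting the closed form of that transformation gave normalized counts. Low values piled up at multiples of a step, but only 32.9% to 51.1% of them per library lay within 0.02 steps of a whole number, so reads were not recovered, no count model was used, and depths are estimates.

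limma 3.58.1 in R 4.3.3 fitted group alone to all genes and libraries, with variances following the mean (6 residual degrees of freedom). The procedure was tested on simulated data. Gene symbols matched 15902 identifiers. Transcripts were compared with BLAST 2.17.0. The table of reference proteins was not used here, so identity is between transcripts. Members, gene lists and the naming rule (every member past the threshold, the smallest p of each family, and a panel of known kidney transporters) were chosen with earlier results of these data known. Other named members were chosen after their values were seen. Values of 1 member, of some listed genes and of 1 promoter motif are not reported here.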

Additional observations from a re-analysis of the deposited data

Results flagged for a closer look

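In 46 genes (the 45 transporters and Arhgef11), the highest or lowest of the 5 Sglt2Cre libraries was compared with the others, and 5 genes had a library whose gap to the nearest other exceeded 0.71 of the group's range. Chance flags about 1 in 20 such groups. Slc22a18 was lowest in Sglt2Cre replicate 2, with 7780 normalized counts and 11120 in the nearest other library. Abcc2 was highest in Sglt2Cre replicate 5, with 22670 normalized counts and 15960 in the nearest other library. Slco5a1 had 24.99 in Sglt2Cre replicate 5 and 11.47 in the nearest other library. Abcc8 had 19.19 in Sglt2Cre replicate 2 and 11.25 in the nearest other library. Slc47a2 had 24.74 in Sglt2Cre replicate 2 and 8.36 in the nearest other library. The last 3 genes are low throughout.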

How the results depend on the processing

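The 4 lower and 3 higher calls became 7 lower with sample weights or at a threshold of 0.1, with 4 and 3 higher. With 1 library left out, 2 to 6 genes were lower and 0 to 6 higher. The 6 higher came without Arhgef11Sglt2 replicate 1, and 0 were higher without Arhgef11Sglt2 replicate 2 or 3 or Sglt2Cre replicate 3, 4 or 5. The 2 lower came without Arhgef11Sglt2 replicate 3 or Sglt2Cre replicate 4. All 7 called genes kept their sign under all 17 alternatives. Since their groups did not overlap, leaving out a library or changing the threshold, the filter or the variance trend could not have reversed it. With a replicate block 0 were lower and 0 higher. Deviations of same-numbered libraries correlated at -0.183, -0.088 and -0.01, which shows no pairing but, with so few libraries, cannot exclude one. The labels give these samples only a shared number, and the block leaves few degrees of freedom. The members' median of -0.06 was -0.13 under the filter of 50 normalized counts, -0.32 as log2(normalized count + 1), and -0.25 as log2(normalized count + 10), since these settings leave low genes out or compress them less. Equal totals with that last pseudocount gave -0.22. The median ran from -0.13 to -0.049 with 1 library left out. Arhgef11 passed under no alternative.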
